A study of Mus musculus with 2 samples.

Results

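The distal microRNA (miRNA) genes of the imprinted Dlk1-Dio3 domain, from the host gene Rian to the host gene Mirg, were examined in forebrain of E12.5 mouse embryos. The members were chosen with earlier results of these data known. They were taken by position, as every counted miRNA gene on either strand in a window of chromosome 12 that takes in Rian and Mirg. This gave 43 of the 1973 miRNA genes counted, from 109611500 to 109747960 of mm10. All 43 lie on the plus strand or were read through a gene annotated across a plus-strand hairpin. Mir409, Mir376a, Mir380 and Mir299a were read in this way, as the opposite-strand reads of Gm24321, Gm25252, Gm25750 and Mir299b, and are called here by the name of the plus-strand hairpin. Mir376b, which lies in the same window, was not analysed here. Just inside the window, Mir341 starts at 109611500 with 1213 CPM (reads per 1000000 assigned) and Mir3072 ends at 109747960 with 133 CPM. Just outside it, Mir3071 ends at 109595397 with 441 CPM and Mir1247 starts at 110278048 with 135 CPM. Mir3071 was read on its annotated strand and has Mir136 on the opposite strand, and its gene version differs between the tables and M21, so which of the pair gave its reads is uncertain.

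Small RNA shorter than 30 nt was sequenced from embryos of the B6NCrl strain, healthy and of both sexes pooled, at embryonic day 12.5. There was 1 group with 2 biological replicates, and each replicate was 1 library from 1 pool of dissected forebrains, replicate 1 from 120 embryos and replicate 2 from 68. No treatment, genotype or second tissue was compared. Whether dissection, library making or sequencing differed between the pools is not given in the sources used here, and any such difference cannot be told apart from the pool. With 1 library a pool, a test on their reads compares these libraries and not conditions.

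The Dlk1-Dio3 domain carries protein-coding genes that are active on the paternal chromosome and long non-coding RNAs, Meg3, Rian and Mirg, that are active on the maternal chromosome. The maternal RNAs are thought to be parts of a long transcription unit from which long arrays of snoRNA and miRNA hairpins are cut. The array that ends in Mirg is known as the miR-379 to miR-410 cluster, is found in placental mammals, and is strongly expressed in embryo and brain. In neurons its transcription responds to activity through the factor Mef2, and its members act on dendrites, spines and synaptic proteins. Each hairpin is cut by Drosha and Dicer into a 5p and a 3p arm, and bases 2 to 8 of a mature miRNA, the seed, do most of the pairing with a target messenger RNA.

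The mature miRNAs of the most abundant hairpins are shown first, because these reads make up most of the signal of the locus. Sequences are those of RefSeq on GRCm38.p6, the same assembly as mm10, where 41 of the 43 members had a mature sequence and 39 a hairpin. Capitals mark the seed.
mmu-miR-487b-5p: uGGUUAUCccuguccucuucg
mmu-miR-409-5p: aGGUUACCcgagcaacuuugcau
mmu-miR-409-3p: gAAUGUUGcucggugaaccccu
mmu-miR-369-5p: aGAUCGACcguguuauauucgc
mmu-miR-369-3p: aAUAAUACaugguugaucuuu
mmu-miR-541-5p: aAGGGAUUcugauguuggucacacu
mmu-miR-541-3p: uGGCGAACacagaauccauacu
mmu-miR-411-5p: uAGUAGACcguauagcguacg
mmu-miR-411-3p: uAUGUAACacgguccacuaacc
The counts are per hairpin gene and hold both arms together, so which arm gave the reads cannot be read from them.

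The 76 mature sequences carried 70 seeds, and 6 seeds occurred in more than 1 of the members' hairpins. Beyond these, miR-376c-5p shares the seed UGGAUAU with Mir376b, and miR-299a-3p shares AUGUGGG with Mir299b, the minus-strand gene across Mir299a. Only 1 mature sequence was listed for each of Mir487b, Mir376c, Mir539, Mir485, Mir882 and Mir453, so seeds shared through an unlisted arm are missed here. Each of the 6 seeds shared among members joined exactly 2 hairpins, and these are printed as pairs.
mmu-miR-379-3p: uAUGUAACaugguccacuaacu
mmu-miR-411-3p: uAUGUAACacgguccacuaacc
mmu-miR-379-5p: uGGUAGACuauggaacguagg
mmu-miR-1193-5p: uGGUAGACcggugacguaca
mmu-miR-370-5p: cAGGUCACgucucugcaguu
mmu-miR-1193-3p: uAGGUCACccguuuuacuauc
mmu-miR-494-5p: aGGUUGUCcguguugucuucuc
mmu-miR-410-5p: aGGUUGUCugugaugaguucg
mmu-miR-758-5p: uGGUUGACcagagagcacacg
mmu-miR-1197-5p: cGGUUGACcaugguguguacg
mmu-miR-496a-5p: aGGUUGCCcaugguguguuca
mmu-miR-453: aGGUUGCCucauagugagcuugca
No mature sequence of a member occurred unchanged in another RefSeq miRNA gene. Seeds of 10 members' mature miRNAs also occurred in 14 genes elsewhere in the genome. The one with the highest level was Mir1983, at 5187 CPM, which carries the seed of miR-412-3p. Mir362, which carries the seed of miR-329-3p, stood at 176 CPM and Mir672, which carries that of miR-377-5p, at 143 CPM.

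Reads came from most hairpins of the locus in both libraries. Levels are given as counts per 1000000 reads that fell on a miRNA gene in its own orientation (CPM), with mean ± SD of the 2 replicates. They are not divided by hairpin length, since the libraries hold RNA of mature size. Replicate 1 held 4333194 assigned reads of 11104730 and replicate 2 held 4397107 of 11154304. The members' reads equalled 8.36% of assigned reads in replicate 1 (362445 reads, 95% exact Clopper-Pearson interval 8.34 to 8.39). In replicate 2 they equalled 8.15% (358348 reads, 8.12 to 8.18), and the mean was 8.26% ± 0.152 (SD, n = 2). The members' reads include opposite-strand reads of those on minus-strand genes, which the assigned total leaves out. The value is therefore a ratio and not a part of a whole. With opposite-strand reads added to the total, the mean was 8.03%. The intervals assume a part of a whole, so they do not strictly apply. As computed they do not overlap, and they cover counting error only. Reads matching several places, 37.9% of all reads in each library, stand outside the gene counts. In whole forebrain, fewer cells that express a miRNA and less of it per cell cannot be told apart.

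Of the 43 members, 38 (88.4%) were detected, that is, had at least 10 reads in both libraries, against 406 of all 1973 genes (20.6%). At or above 1000 CPM on average stood 18 members (41.9%), against 105 of all genes (5.32%). Among the 100 miRNA genes with the highest mean CPM, 17 were members, and 2 of these, Mir487b at rank 18 and Mir409 at rank 22, stood among the first 25. Ranks and comparisons with all genes leave out reads matching several places. Genes of miRNAs with several gene copies, such as Mir9-2 at 5.61 CPM and Mir124a-3 at 2.18 CPM, may therefore stand too low. The 38 detected members had a median of 914 CPM, against 158 CPM for all detected genes, and spanned a 2713-fold range. The remaining 5 comprised Gm27379, with 2 and 7 reads (0.462 and 1.59 CPM), and Gm23912, Mir882, Mir654 and Mir453, with 0 reads in both. At a count of 0 the limit of 3 counts is 0.692 CPM for replicate 1 and 0.682 CPM for replicate 2.

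**Figure D1:**
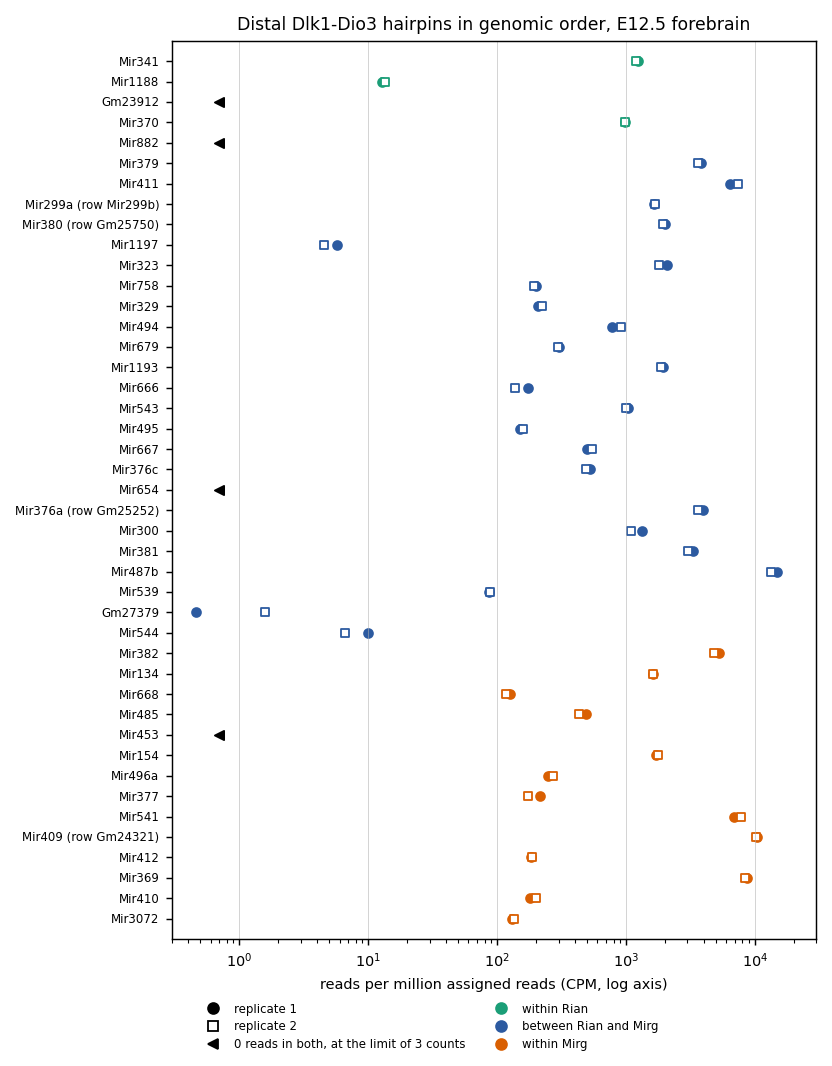
Level of each of the 43 hairpins in genomic order (vertical) on a logarithmic axis of reads per 1000000 assigned reads (horizontal), with filled circles for replicate 1, open squares for replicate 2, and triangles at the limit of 3 counts for the 4 hairpins without reads. Detected hairpins run from Mir1197 at 5.16 CPM to Mir487b at 13996 CPM, and both libraries lie close together for most of them.

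A few hairpins held most of the signal. The single most abundant member held 16.9% ± 0.939 of the members' reads (SD, n = 2), the first 3 held 39.8% ± 1.18, the first 5 held 57.0% ± 0.697 and the first 10 held 78.4% ± 0.00542. Between 1000 and 10000 CPM lay 16 hairpins, between 100 and 1000 CPM another 16, between 10 and 100 CPM 2, and below 10 CPM 2 of those detected. The other 2 detected members, Mir487b and Mir409, stood above 10000 CPM.

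Mir487b led the locus with 14726 CPM in replicate 1 and 13266 CPM in replicate 2, or 13996 ± 1033 CPM. It lies at 109727333 to 109727414, outside any annotated host gene, upstream of Mirg. Mir409 followed with 10473 and 10111 CPM (10292 ± 257) and lies at 109743158 to 109743236, in an intron of Mirg. The lower library of Mir487b stood above the higher library of Mir409, so the order of this pair held in both.

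Mir369 had 8756 and 8352 CPM (8554 ± 286), at 109743418 to 109743496, partly in an exon of Mirg. Its 3p arm is known in human cells for binding AU-rich elements and raising translation in resting cells, and in mouse cortex for acting on N-cadherin together with miR-496 and miR-543. Mir541 had 6929 and 7761 CPM (7345 ± 589) and Mir411 had 6377 and 7361 CPM (6869 ± 696). Mir369 was above both in each library. Mir541 was above Mir411 within each library, although the higher value of Mir411 lay above the lower value of Mir541.

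Mir382 came next, at 5220 and 4841 CPM (5031 ± 268), below every value of Mir411. Mir376a, at 3959 and 3630 CPM (3794 ± 232), was above Mir379, at 3802 and 3604 CPM (3703 ± 140), within each library, although their values overlapped across the libraries. Mir381 stood below both, at 3293 and 3014 CPM (3153 ± 198). The primary transcripts of the miR-376 family, miR-379, miR-381 and miR-411 are known substrates of the ADAR enzymes, which turn adenosine into inosine. Counts per gene hold no information on such edits.

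The next 3 lay close together. Mir380 had 2010 and 1929 CPM (1969 ± 57.5), Mir323 had 2077 and 1799 CPM (1938 ± 196), and Mir1193 had 1938 and 1881 CPM (1910 ± 40.3). Mir380 was above Mir1193 within each library, whereas Mir323 was the highest of the 3 in replicate 1 and the lowest in replicate 2. Mir409, Mir376a and Mir380, all among the 12 most abundant, are read through a minus-strand gene. The other hairpin read in this way, Mir299a, had 1644 and 1679 CPM (1662 ± 25.1). Together these 4 held 21.5% ± 0.237 of the members' reads, and a count restricted to the annotated strand would miss them.

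By position the members fall into 3 stretches. The stretch inside Rian, which runs from 109603940 to 109661716, held 4 hairpins, all in introns, and 2.67% of the members' reads (2207 ± 20.9 CPM in sum). Nearly all of it came from a pair of them. Mir341 had 1229 and 1197 CPM and Mir370, a miRNA whose 5p seed recurs in miR-1193-3p, had 981 and 982 CPM. Mir1188, which lies 226 bases after Mir341, had 12.7 and 13.4 CPM, from 55 and 59 reads. Gm23912 lies 57 bases before Mir370 and had no reads.

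From the end of Rian to Mir379 lie 47.3 kb with a single counted hairpin, Mir882, which had no reads. The dense array then starts at 109709060 with Mir379 and holds 38 hairpins in 38.9 kb up to Mir3072, of which 35 were detected. Neighbouring hairpins are 590 bases apart at the median, with gaps from 20 to 4368 bases. Its first section, between Rian and Mirg, held 24 hairpins, 22 of them detected, and 53.6% ± 0.568 of the members' reads (44230 ± 1283 CPM in sum). The median of its detected hairpins was 935 CPM.

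Mirg, from 109729764 to 109749460, covers the second section and held 14 hairpins, 13 of them detected, and 43.8% ± 0.544 of the members' reads (36133 ± 215 CPM in sum, median 460 CPM). Mir134, the miRNA of this locus best known in neurons, where it holds down Limk1 at dendritic spines, had 1629 and 1620 CPM (1624 ± 5.80), and its 5p arm reads as follows.
mmu-miR-134-5p: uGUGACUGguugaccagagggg
Mir485, which is known to act on the synaptic vesicle protein SV2A, had 487 and 433 CPM. By gene model, 4 hairpins in exons of Mirg had a median of 327 CPM, 5 that lie partly in an exon a median of 185 CPM, and the 4 detected of 5 in introns a median of 4544 CPM. Each of these classes spanned a wide range, from 191 to 1624 CPM in exons, from 122 to 8554 CPM partly in exons and from 259 to 10292 CPM for those detected in introns, and the ranges overlap.

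**Figure D2:**
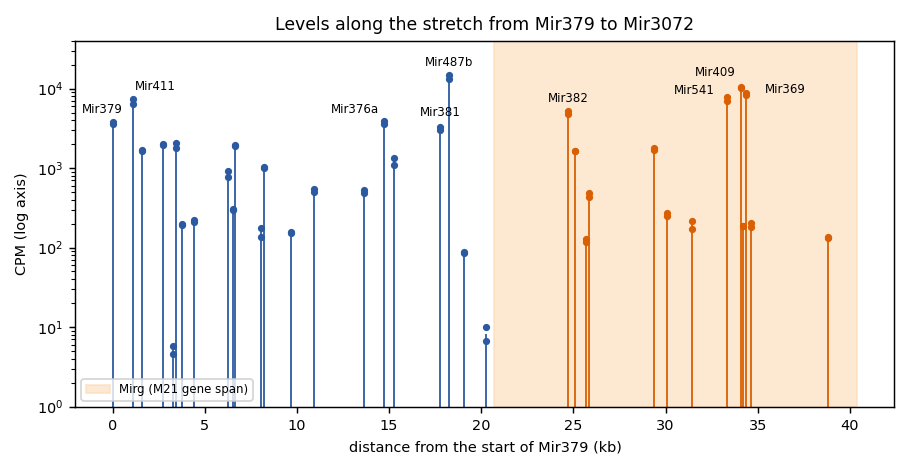
Level of the 35 detected hairpins from Mir379 to Mir3072 (vertical, CPM on a logarithmic axis, 1 point per library, line to the mean) against distance from the start of Mir379 in kb (horizontal), with the span of Mirg shaded from 20.7 to 40.4 kb. High hairpins stand beside low ones on both sides of the start of Mirg, and Mir487b is the highest point before it.

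Hairpins that lie next to each other differed widely in level. Over the 32 neighbouring pairs in which both were detected, the median absolute difference in log2(CPM + 1) was 2.41, and over the 20 of these at most 1000 bases apart it was 2.73. All 703 pairs of detected members, neighbours or not, had a median of 2.69. The pairs share hairpins and 1 locus, so these medians are a description.

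The 5 neighbouring pairs with the largest difference each involved a hairpin with no reads. Mir654 had 0 reads 479 bases before Mir376a at 3794 CPM, Mir882 had 0 reads before Mir379 at 3703 CPM, and Mir453 had 0 reads before Mir154 at 1743 CPM. Gm23912 before Mir370 and Mir370 before Mir882 were the others, around the 982 CPM of Mir370. Since each difference is taken against a hairpin without reads, it rests on the pseudocount of 1 CPM and no fold is given.

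Among pairs with both hairpins detected, chosen after their values were seen, Mir544 and Mir382 differed most. Mir544 had 9.92 and 6.60 CPM, from 43 and 29 reads, and lies 4368 bases before Mir382 at 5031 CPM, a difference of 9.11 on the log2 scale. Mir1197, the least abundant detected member at 5.77 and 4.55 CPM (25 and 20 reads), sits between Mir380, 453 bases upstream, and Mir323, 71 bases downstream. The differences of Mir1197 to these neighbours were 8.33 and 8.30. Mir539, at 86.5 and 87.6 CPM, lies 714 bases after Mir487b and differed from it by 7.31.

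The tightest such group stands near the end of the array. Mir409, Mir412 and Mir369 follow each other with gaps of 52 and 49 bases, and Mir410 comes 218 bases later. Mir412 had 184 and 185 CPM between Mir409 at 10292 CPM and Mir369 at 8554 CPM, with differences of 5.79 and 5.53 on the log2 scale. Mir410 had 180 and 202 CPM and differed from Mir369 by 5.48. High and low hairpins alternated here over a short distance, in both libraries.

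Many hairpins of the array resemble each other beyond the seed. The following 4 are printed because they form a pair with the highest identity of the locus and a pair of high identity with a large difference in level. Capitals mark the mature arms.
Mir543: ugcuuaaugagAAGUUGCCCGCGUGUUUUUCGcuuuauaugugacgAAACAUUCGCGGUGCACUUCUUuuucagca
Mir495: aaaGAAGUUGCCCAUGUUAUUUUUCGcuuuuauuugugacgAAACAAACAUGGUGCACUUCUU
Mir381: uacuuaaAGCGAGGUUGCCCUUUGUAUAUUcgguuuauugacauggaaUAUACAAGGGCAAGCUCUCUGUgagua
Mir377: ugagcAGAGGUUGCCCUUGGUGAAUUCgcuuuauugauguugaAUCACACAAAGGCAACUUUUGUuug
In global alignments with free end gaps, Mir543 and Mir495 matched at 53 of 65 aligned columns (81.5%), and Mir381 and Mir377 at 52 of 70 (74.3%).

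Hairpins alike in sequence were not alike in level as a rule. Mir543 had 1039 and 1008 CPM and Mir495, which is known to act on Bdnf, had 151 and 158 CPM, a difference of 2.72 on the log2 scale. Mir381 stood 4.01 above Mir377, which had 216 and 174 CPM. Mir411 and Mir758 shared 73.5% identity and differed by 5.12, and Mir382 and Mir539 shared 72.7% and differed by 5.84. Other pairs lay close, such as Mir379 and Mir411, with 77.9% identity and a difference of 0.89, and Mir377 and Mir410, with 71.8% and 0.03. Over the 38 pairs of detected hairpins with at least 70% identity over 50 or more columns the median difference was 2.13 (0.03 to 5.84), and over the 443 pairs below 70% it was 2.68. The ranges overlap and pairs share hairpins, so no test was made.

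**Figure D3:**
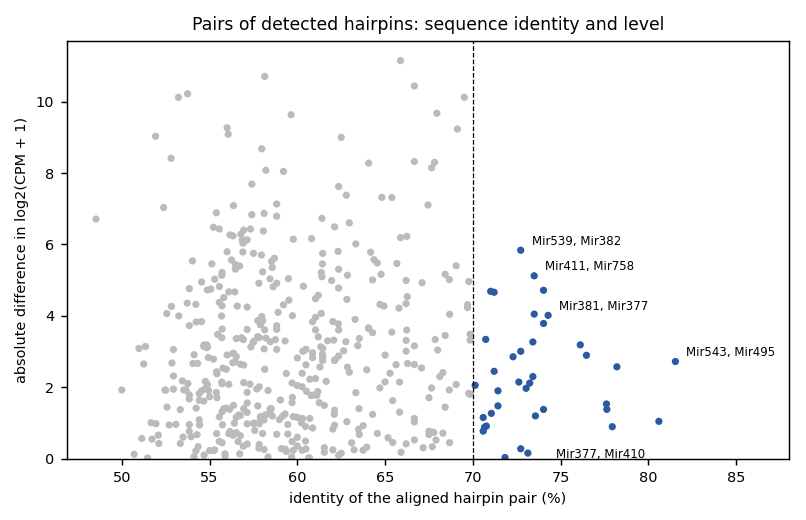
Absolute difference in log2(CPM + 1) between 2 detected hairpins of the locus (vertical) against the identity of their aligned sequences in percent (horizontal), 1 point per pair, with pairs of at least 70% identity in blue right of the dashed line. Pairs in blue run from 0.03 for Mir377 and Mir410 to 5.84 for Mir382 and Mir539, with Mir543 and Mir495 farthest to the right at 81.5%.

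The hairpins of a shared seed also differed in level. Mir411 (6869 CPM) and Mir379 (3703 CPM) share the seed AUGUAAC on their 3p arms, and Mir379 and Mir1193 (1910 CPM) share GGUAGAC on their 5p arms. Mir1193 and Mir370 (982 CPM) share AGGUCAC, and Mir494, at 781 and 911 CPM, shares GGUUGUC with Mir410 at 191 CPM. For the seed GGUUGAC, Mir758 had 200 and 193 CPM and Mir1197 had 5.16 CPM on average. For GGUUGCC, Mir496a had 248 and 270 CPM and Mir453 no reads.

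Longer stretches shared with other annotated hairpins limit how well a read can be placed. Of the 43 members, 4 share at least 20 bases with another hairpin, and all 4 were detected. Mir411 and Mir758 share such a stretch with each other, and Mir376c, at 528 and 492 CPM, and Mir487b each share one with Mir376b. Reads matching several places stand outside the gene counts, so reads falling wholly within these stretches may be missing, and the levels of these 4 are uncertain to that extent. Without these 4 the members' reads equalled 6.10% of assigned reads.

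Some short words recur in the hairpins of the array. The words were chosen after the sequences were seen and searched on the hairpin strand only, and a match is a description and not a site. UUCGCUUUA, which runs from the end of the 5p arm into the loop of Mir377, was found in 5 of 39 members with a RefSeq hairpin (12.8%: Mir543, Mir382, Mir154, Mir377 and Mir410), in 0 of 14 proximal hairpins of the domain and in 0 of 944 other mouse hairpins. UACUUG was found in 10 of 39 members (25.6%), 0 of 14 and 16 of 944 (1.70%), and CAGUAUC in 5 of 39 (12.8%), 0 of 14 and 6 of 944 (0.636%). The other hairpins were those of every RefSeq gene outside both sets, so Mir376b of the same window was not held apart from them. The 5 hairpins with UUCGCUUUA ranged from 191 to 5031 CPM.

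Neither length, base composition nor folding energy ordered the 38 detected hairpins closely. Hairpin length, 61 to 121 bases, had a Pearson correlation of -0.33 and a Spearman correlation of -0.13 with log2(CPM + 1). For GC content, 29.1% to 72.3%, the values were -0.18 and -0.19, and for the minimum folding energy, -46.9 to -16.6 kcal/mol, they were 0.16 and 0.14. The hairpins share 1 locus and the same libraries, and the values are given as a description.

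The levels were close in the pools of embryos. Over the 38 detected members the libraries had a Pearson correlation of 0.998 and a Spearman correlation of 0.996 on log2(CPM + 1), 26 members held the same rank in both, and no rank moved by more than 4 places. The coefficient of variation over the 2 replicates had a median of 4.93%, from 0.120% for Mir370 to 28.5% for Mir544. These correlations run across hairpins, which are not independent replicates.

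With this depth even small differences passed a test on reads. By two-sided Fisher's exact test of each gene's reads against the remaining assigned reads, with Benjamini-Hochberg adjustment over 514 genes, 18 of the 38 members tested differed between the libraries at an adjusted p under 0.05, against 33.1% of all genes tested. Of these, 5 were higher in replicate 2, against 20% of all genes, and 13 were lower, against 13.0%. Abundant genes pass such a test more easily, and among genes of at least 100 CPM 18 of 34 members (52.9%) were called, against 142 of 233 genes (60.9%). By direction at that level, 5 of 34 members were higher in replicate 2, against 78 of 233 genes, and 13 were lower, against 64. No member was both called and at least 1.5-fold apart in CPM, against 6.23% of all genes. Mir544, at 9.92 and 6.60 CPM, did not pass the test, and Gm27379, at 0.462 and 1.59 CPM, had too few reads to be tested. With TMM scaling, under which the median log2 ratio of all tested genes was -0.01 in place of 0.04, and likewise with DESeq2 size factors, the split was 3 higher and 17 lower.

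Mir494 and Mir411 had the largest ratios among the 5 called higher in replicate 2. The log2 ratio of replicate 2 to replicate 1 was 0.21 for Mir411 (Fisher's exact test, adjusted p = 5.0e-68) and 0.22 for Mir494 (adjusted p = 3.09e-10). Mir541 followed at 0.16, and Mir667, at 497 and 542 CPM, and Mir154, at 1706 and 1780 CPM, were the other 2 called higher. Under TMM or DESeq2 scaling Mir667 and Mir154 did not pass, with adjusted p of 0.184 and 0.758 by Fisher's exact test under TMM.

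Among the 13 called lower in replicate 2, the largest differences were in hairpins of low or middle level. Mir666 had 175 and 137 CPM, a log2 ratio of -0.35 (Fisher's exact test, adjusted p = 3.1e-05), and Mir377 a ratio of -0.31 (adjusted p = 4.04e-05). Mir300, with 1325 and 1100 CPM, had a ratio of -0.27 (adjusted p = 1.55e-20). Mir487b stood at -0.15 (adjusted p = 5.71e-74), and the others were Mir323, Mir485, Mir381, Mir376a, Mir382, Mir379, Mir369, Mir380 and Mir409. Under TMM or DESeq2 scaling Mir341, Mir376c, Mir543 and Mir1193 were also called lower. The widest ratio of all members, -0.52 for Mir544, rested on 43 and 29 reads and did not pass (adjusted p = 0.214).

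**Figure D4:**
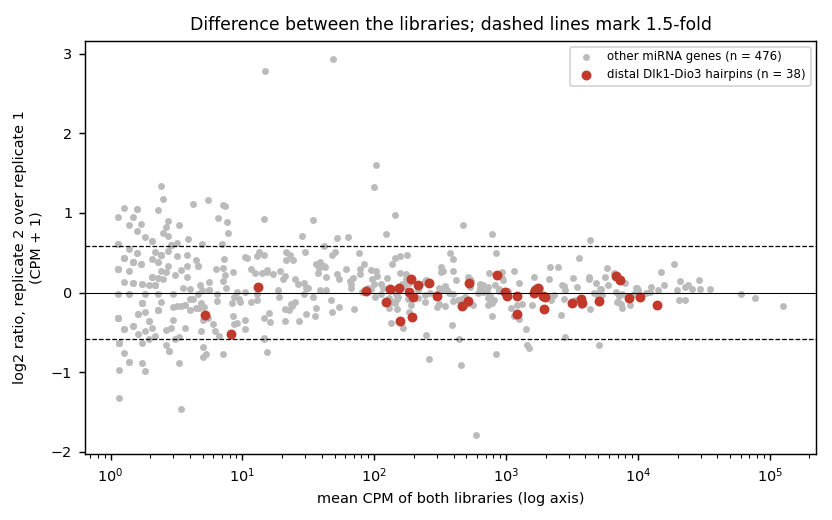
Log2 ratio of replicate 2 to replicate 1 (vertical, CPM + 1) against the mean CPM of both libraries (horizontal, logarithmic axis) for 514 tested miRNA genes, with the 38 tested members in red and dashed lines at 1.5-fold. On this scale all 38 members lie between the dashed lines, from -0.52 to 0.22, while other genes reach -1.79 and 2.93.

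The median log2 ratio over the members was -0.04, against 0.04 over all 514 genes, and the median absolute ratio was 0.10 against 0.20. The markers of other tissue components also differed between the pools. The epithelial list (7 of 7 detected) summed to 13628 and 10008 CPM, the mural and mesenchymal list (6 of 6) to 12983 and 15695 CPM, and the endothelial Mir126a stood at 16564 and 21180 CPM. The neural list (10 of 12), led by the neuronal miRNA Mir137 at 5207 CPM, summed to 11512 and 10379 CPM. Its Mir9 and Mir124a genes may stand too low, since reads matching several places are outside the counts. Erythroid genes (3 of 3) summed to 327 and 251 CPM, leukocyte genes (3 of 3) to 373 and 452 CPM, Hox-linked genes of hindbrain and spinal cord (4 of 5) to 179 and 169 CPM, and the liver miRNA Mir122 to 10.4 and 7.73 CPM. Muscle genes (1 of 5) summed to 3.23 and 26.8 CPM, with Mir133a-1 and Mir133a-2 at 0. Some of these sums hold genes that went the other way. In the epithelial list Mir203 (1916 and 2401 CPM) and Mir205 (692 and 976 CPM) were higher in replicate 2. The other epithelial genes, such as Mir429 (6141 and 3908 CPM), were lower. Erythroid Mir451a (293 and 203 CPM) was lower, and Mir144 and Mir486 were higher. Neural Mir153 (3304 and 2251 CPM) and Mir7b were lower, while Mir137 and the Mir128 and Mir138 genes were higher. The Hox-linked list was mixed as well. The part of these differences in the members' ratios was not tested.

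The nearest group for comparison is the proximal part of the same domain, 15 miRNA genes from 109544541 to 109595397 around Meg3 and antisense to Rtl1. Of these 12 were detected, and they held 2.41% ± 0.161 of assigned reads, so the distal members made up 77.4% ± 0.849 of the reads of both together (SD, n = 2). The detected proximal genes had a median of 837 CPM, against 914 CPM for the distal ones, a log2 difference of 0.13 that fell to 0.01 in replicate 1 alone and turned to -0.71 when the 4 hairpins read through minus-strand genes were left to the annotated strand. No test was made, since hairpins of 1 locus are not replicates. Between the libraries 7 of 12 proximal genes were called, all 7 lower in replicate 2, with a median log2 ratio of -0.15. Without Mir3071, whose reads are uncertain in origin, the log2 difference of medians was 0.04, and 6 of 11 proximal genes were called, all 6 lower.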

How the data were processed

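The submitters deposited raw read counts per miRNA gene for 2 libraries, not normalised, in 3 columns without a header. From the values these were read as both strands together, the strand of the gene and the opposite strand, since the first equals the sum of the others in all 1973 genes and the second holds 4333194 and 4397107 reads, against 119609 and 125632 in the third. The 4 members on minus-strand genes rest on this reading. Notes deposited beside the counts name the assembly mm10 and annotation M4. Which aligner, counter and trimming were used, and by which rule a read was taken to match several places, is not given in the sources used here. The rows that name no gene were left out of library sizes: 17.5% and 16.8% of reads were unmapped, 37.9% in each library matched several places, and 5.49% and 5.93% lay in no feature.

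Genes were placed by Ensembl ID in GENCODE M21 (1894 of 1973 matched; 30 of 43 members had the same version). Members on minus-strand genes were counted from the opposite strand. CPM use the gene-strand assigned reads of each library as the total, and logs are log2(CPM + 1). One group leaves no contrast for edgeR's quasi-likelihood test, so genes with 10 or more reads over the pair of libraries were compared by two-sided Fisher's exact test with Benjamini-Hochberg adjustment at 0.05. For the 4 members on minus-strand genes, the total used in CPM and in this test does not hold their own reads. No molecular identifiers are recorded for the reads, so p-values, intervals and floors of 3 counts cover counting error only. TMM (edgeR 4.0.16), size factors (DESeq2 1.42.0), other minima, pseudocounts and strand columns, and each library alone were alternatives. Hairpins were aligned with Biopython 1.88 and folded with ViennaRNA 2.7.2, in Python 3.11.15 with SciPy 1.17.1, pandas 2.3.3 and NumPy 2.4.6, beside R 4.3.3.

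The members, lists and tests were chosen with earlier results of these data known. The genes given with both values were the 12 most abundant members, those read through minus-strand genes, the 3 lowest detected, those on either side of the detection minimum, those called at 1.5-fold or more, those sharing 20 bases, the extremes of each shared seed and the 5 neighbouring pairs that differ most; others were named after their values were seen.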

Additional observations from a re-analysis of the deposited data

Results flagged for a closer look

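Reads on the strand of Mir299b itself, opposite to Mir299a, numbered 12 in replicate 1 and 12 in replicate 2, where the count of the other strand was 7123 and 7384. They were picked out because they lie outside the strand used for the members and exceed the 3 counts that an absent signal allows. The hairpin of Mir299a holds a stretch of 21 bases that also occurs in its own reverse complement, so the strand of a read that falls wholly within it cannot be told. The plus-strand members had 0 reads on the opposite strand in both libraries.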

How the results depend on the processing

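The ratio of the members' reads to assigned reads, 8.26%, was 6.49% with the gene-strand column only, which takes the 4 minus-strand genes on their annotated strand. It was 8.03% with the both-strand column, 8.03% with opposite-strand reads added to the library size, 4.20% with reads matching several places added to it, 9.45% with the most abundant gene taken out of it, and 6.10% without the members that share a stretch. Each library alone gave 8.15% and 8.36%. The share of the first 5 members, 57.0%, was 64.4% with the gene-strand column and 56.5% to 57.5% in each library alone. The number detected was 38 in each library alone, and 35 to 39 under other minima and columns.

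The median log2 ratio of -0.043 was -0.092 with TMM and -0.083 with DESeq2 size factors. The 18 members called different became 0 where 1.5-fold or 2-fold was also asked, against 32 and 14 of 514 genes, and 15 to 20 under the other alternatives run. Against the proximal hairpins, the log2 difference of medians of 0.13 reversed to -0.71 with the gene-strand column, with a median of 510 CPM over the 35 distal genes then detected. It was 0.01 to 0.24 in each library alone, and 0.044 without Mir3071, an alternative chosen after seeing the data. No paired analysis was possible because there is only 1 group. Depth limits the hairpins of low level most: the 2 detected members under 10 CPM rest on 20 to 43 reads a library.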
